A study of Rattus norvegicus with 4 samples.

Results

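Interferon response and antigen presentation genes were followed in neonatal rat ventricular myocytes (NRVM), cultured muscle cells taken from the ventricles of newborn rats. The members were Stat2, Irf1, Irf7, Mx1, Mx2, Isg15, Tap1, B2m and Cd74. They were found by taking every probe set whose only gene symbol in the platform annotation was one of these 9 names. That gave 12 probe sets of 8 genes, out of 15866 probe sets that were not Affymetrix controls. No probe set carried the name Isg15, the ubiquitin-like modifier, and it was not analysed here.

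The study measured transcripts on 4 Affymetrix rat arrays, with the total RNA of 1 sample on each. Control replicates 1 and 2 came from myocytes in dishes without a coating. For fibronectin replicates 1 and 2 the dishes had a coating of fibronectin, a matrix glycoprotein bound by integrins. Every sample had 24 h in medium with 10% serum followed by 48 h without serum. The labels name no treatment with interferon or virus. Nor do they state that replicates were separate cultures, and p-values then cover the spread of these samples alone, which may be technical.

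Interferons act through cell surface receptors and Janus kinases. Type I interferon leads to a complex with STAT2 and IRF9 that binds interferon-stimulated response elements in promoters. Type II interferon acts through gamma-activated sites. Among the target genes are antiviral effectors such as the Mx GTPases and much of the machinery that presents antigen. Class I molecules, made of a heavy chain and beta-2-microglobulin, display peptides that the TAP transporter carries into the endoplasmic reticulum. Class II molecules, with their invariant chain Cd74, belong chiefly to specialised antigen-presenting cells such as macrophages and B cells.

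The promoters of the members were read from RefSeq (build GRCr8), as 300 bases from 250 before to 50 after each gene's start, because the members are named for a response that acts through promoter elements. The table held 7 of the members, all but Mx2 and Isg15. The core of the interferon-stimulated response element, GAAA followed by any 2 bases and a second GAAA, was searched on both strands. It was present in the promoters of Irf7, B2m and Tap1, 3 of the 7, and in 3.92% of all 33469 promoters in the table. The gamma-activated site, TTCNNNGAA, which reads the same on both strands, was present in 1 of the 7, that of Irf1, and in 8.87% of all promoters. A match is a description of the letters in this window and shows no binding. These 4 stretches are shown 5′ to 3′ on the gene's strand with the match in capitals and 25 bases on either side:
Irf7 (chr1:205800058-205800117, minus strand): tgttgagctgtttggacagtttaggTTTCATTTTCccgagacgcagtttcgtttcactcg
B2m (chr3:129549155-129549214, plus strand): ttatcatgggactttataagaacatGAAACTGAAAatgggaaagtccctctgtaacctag
Tap1 (chr20:4668630-4668689, minus strand): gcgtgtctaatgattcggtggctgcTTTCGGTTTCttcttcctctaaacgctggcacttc
Irf1 (chr10:38417768-38417826, plus strand): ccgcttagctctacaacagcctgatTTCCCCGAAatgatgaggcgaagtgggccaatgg

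The matches in Irf7 and Tap1 lie on the opposite strand to the gene, so they appear as TTTCATTTTC and TTTCGGTTTC. Counted back from the gene's start, the match began 69 bases before it in Irf7, 121 in Tap1, 142 in Irf1 and 150 in B2m.

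Several features of the arrays touch every value given here. Log2 signals of fibronectin replicate 2 correlated least with the other arrays, at r = 0.775 to 0.794 across 9519 tested probe sets (not independent of each other), while the remaining pairs lay between 0.847 and 0.910. Low deposited signals came in whole steps, of 0.1, 0.233 and 0.223 on control replicate 1, control replicate 2 and fibronectin replicate 1, and of 1.95 on fibronectin replicate 2, so dim values were coarsest there. Ratios of 3' to 5' signal for the Gapdh control transcript were 1.64 and 1.15 on the controls and 6.02 and 3.52 on the fibronectin arrays, and those for beta-actin were 1.46 and 1.40 against 13.0 and 6.29. For hexokinase they were 3.77 and 4.12 against 3.11 and 7, so the groups overlapped. The Gapdh and beta-actin ratios moved with the groups, and their part in the differences was not tested. Markers of ventricular myocytes were above the floor, with 11 of 12 on the array and 11 tested, among them Myh6, Tnnt2 and Myl2.

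Among the members a single probe set of Stat2 read at least 8.40-fold higher on fibronectin (at least 4.49-fold with a higher floor), while a brighter Stat2 probe set did not, and the brighter B2m probe set read 1.56-fold lower. Irf1 and Mx1 differed by -0.06 and -0.01 on the log2 scale, and Tap1 and Cd74 were too dim to test. Counting 1 probe set for each of 6 tested member genes, the median log2 difference was -0.04, against 0.02 over all 7101 tested genes. Deposited signals were quantile normalized, raised to a floor of 23.4 (4.55 on the log2 scale) and taken to log2, and differences are fibronectin minus control on that scale with limma's standard error. Of the 12 member probe sets 4 were left out of testing as dim: 1 of Mx2, both of Tap1 and that of Cd74. With limma and Benjamini-Hochberg adjustment over all tested probe sets, 0 of the 8 passed the 0.05 threshold, as did 0% of all 9519 tested. One of the 8, the dimmer Stat2 probe set, was at the floor on both controls and was bright enough for testing only through its fibronectin values, so its p-value is not used. For the other 7 the adjusted p-values ran from 0.750 to 0.997. An unadjusted p under 0.05 was found for 1 of these 7, B2m, lower on fibronectin, against 6.47% of all tested probe sets. Taking the brightest tested probe set of each gene, 1 of 6 member genes had both fibronectin values above both control values, against 20.6% of all tested genes, and 2 of 6 were lower, against 17.2%. With so few genes these shares do not set the members apart.

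**Figure D1:**
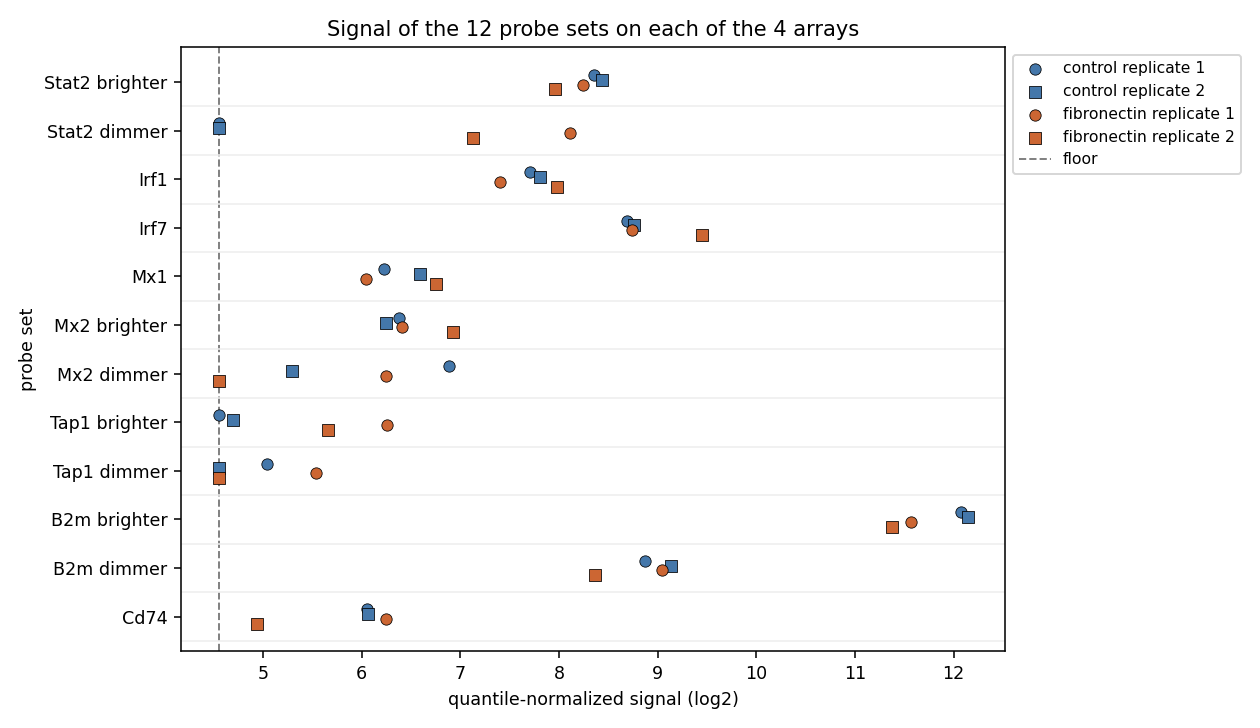
Quantile-normalized log2 signal (horizontal axis) of each of the 12 probe sets (vertical axis) on control replicates 1 and 2 and fibronectin replicates 1 and 2, with the floor at 4.55 as a dashed line. The dimmer Stat2 probe set is at the floor on the controls and reads 8.11 and 7.13 on fibronectin, whereas the brighter Stat2 probe set lies between 7.95 and 8.43 on all 4.

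Stat2, the transducer specific to type I interferon signalling, had a pair of probe sets that disagreed. The brighter one had deposited signals of 356 and 294 on the controls and 374 and 208 on fibronectin replicates 1 and 2. After normalization these were log2 signals of 8.35 and 8.43 against 8.24 and 7.95, so both fibronectin arrays lay just below both controls. The log2 difference was -0.29 (SE 0.35; limma, Benjamini-Hochberg adjusted p = 0.845). On the deposited scale the groups overlapped, since fibronectin replicate 1 had the highest value.

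The dimmer Stat2 probe set behaved differently. Its deposited signals were 20.1 and 15.4 on the controls and 336 and 127 on the fibronectin arrays. Both controls were at the floor after normalization, and the fibronectin arrays had log2 signals of 8.11 and 7.13. The fibronectin mean of 7.62 was 8.40-fold above the floor, so the value on fibronectin was at least 8.40-fold higher than on the controls. This limit moved with the floor: at the 30th percentile it was 4.49-fold, and with an offset of 50 and no floor the log2 difference was 1.90. At the 10th percentile neither control was at the floor, and the log2 difference was 3.58. The probe set did not pass limma's Benjamini-Hochberg threshold, but that test decides nothing, since the floor sets the spread of the controls to 0. Against the main floor the log2 difference was 3.07. Without fibronectin replicate 1 the difference was 2.54, and without fibronectin replicate 2 it was 3.52, both without a test because the probe set then counted as dim. The brighter probe set of the same gene was not higher on fibronectin in any of these settings.

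Irf1, a transcription factor induced by type II interferon, had deposited signals of 227 and 194 on the controls and 198 and 212 on the fibronectin arrays. Its log2 signals were 7.70 and 7.80 on the controls and 7.41 and 7.98 on fibronectin, so the controls lay between the fibronectin arrays. Its log2 difference was -0.06 (SE 0.40; limma adjusted p = 0.979). It turned to 0.22 without fibronectin replicate 1 and was -0.36 without fibronectin replicate 2.

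Irf7, the factor that amplifies the type I interferon response, had deposited signals of 449.9 and 368 on the controls and 537 and 569 on the fibronectin arrays. On that scale both fibronectin arrays exceeded both controls. After normalization the log2 signals were 8.69 and 8.76 against 8.74 and 9.45, and fibronectin replicate 1 lay between the controls. The log2 difference of 0.37 (SE 0.36; limma adjusted p = 0.818) thus came from fibronectin replicate 2. Without that array it was 0.014, and without fibronectin replicate 1 it was 0.71.

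Mx1, whose rat product is a nuclear antiviral GTPase, had deposited signals of 81.8 and 85.8 on the controls and 67.5 and 101 on fibronectin. Its log2 signals were 6.23 and 6.59 against 6.05 and 6.75, so the controls again lay between the fibronectin arrays. A log2 difference of -0.01 resulted (SE 0.61; limma adjusted p = 0.997). It ran from -0.36 without fibronectin replicate 2 to 0.32 without fibronectin replicate 1.

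Mx2, the cytoplasmic relative of Mx1, was read by a pair of probe sets that pointed in opposite directions. The brighter one had deposited signals of 90.2 and 68.5 on the controls and 88.7 and 113 on fibronectin, and log2 signals of 6.38 and 6.25 against 6.41 and 6.93. Both fibronectin arrays were above both controls after normalization, by a small margin for fibronectin replicate 1, but not on the deposited scale. Its log2 difference was 0.36 (SE 0.57; limma adjusted p = 0.892), and 0.10 without fibronectin replicate 2.

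The dimmer Mx2 probe set, left out of testing, had deposited signals of 129 and 38.0 on the controls and 78.4 and 5.85 on the fibronectin arrays. The last of these equals 3 steps of fibronectin replicate 2 and was at the floor. The controls differed more from each other than the group means did, and the log2 difference was -0.69. It was -1.53 without fibronectin replicate 1, -1.51 without control replicate 2, 0.11 without control replicate 1 and 0.12 without fibronectin replicate 2.

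Tap1, a subunit of the peptide transporter, was dim in both of its probe sets. The brighter one had deposited signals of 15.9 and 25.9 on the controls and 79.5 and 46.8 on fibronectin. Its log2 signals were 4.55, which is the floor, and 4.69 on the controls, and 6.26 and 5.66 on fibronectin. Both fibronectin arrays were higher. With the controls at or next to the floor the size of the difference is not measured: it was 1.34 on the log2 scale here, 1.73 with the floor at the 10th percentile and 0.51 with the floor at the 30th percentile. Tested without a filter on dim probe sets, it did not pass limma's Benjamini-Hochberg threshold (adjusted p = 0.599). The floor limited the spread of the controls there, so that test decides nothing.

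The dimmer Tap1 probe set had deposited signals of 38.9 and 5.59 on the controls and 46.7 and 9.74 on fibronectin. Control replicate 2 and fibronectin replicate 2 were at the floor, and in each group replicate 1 was the higher array. The log2 difference was 0.25, with overlapping groups.

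B2m, which encodes the light chain shared by class I molecules, had a pair of tested probe sets, both with lower means on fibronectin. The brighter one had deposited signals of 3904 and 3604 on the controls and 3617 and 2664 on the fibronectin arrays, so that only fibronectin replicate 2 was below both controls. After normalization the log2 signals were 12.08 and 12.15 against 11.57 and 11.37, and the groups no longer overlapped. This gave a log2 difference of -0.64 (SE 0.25), or 1.56-fold lower, with an unadjusted p of 0.0333 that did not pass limma's Benjamini-Hochberg threshold (adjusted p = 0.750). It was -0.27 on the deposited scale, and ran from -0.73 to -0.53 with 1 array left out.

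The dimmer B2m probe set had deposited signals of 511 and 465 on the controls and 673 and 271 on fibronectin. Its log2 signals were 8.87 and 9.13 against 9.05 and 8.37, with fibronectin replicate 1 between the controls. The log2 difference was -0.29 (SE 0.36; limma adjusted p = 0.853), and it turned to 0.049 without fibronectin replicate 2.

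Cd74, the invariant chain of class II molecules, had deposited signals of 72.9 and 61.1 on the controls and 78.6 and 23.4 on fibronectin replicates 1 and 2, the last equal to 12 steps of that array. Its log2 signals were 6.05 and 6.06 on the controls and 6.25 and 4.94 on fibronectin. The fibronectin arrays thus lay on either side of the controls, and the log2 difference of -0.46, not tested, became 0.19 without fibronectin replicate 2 and -1.13 without fibronectin replicate 1.

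**Figure D2:**
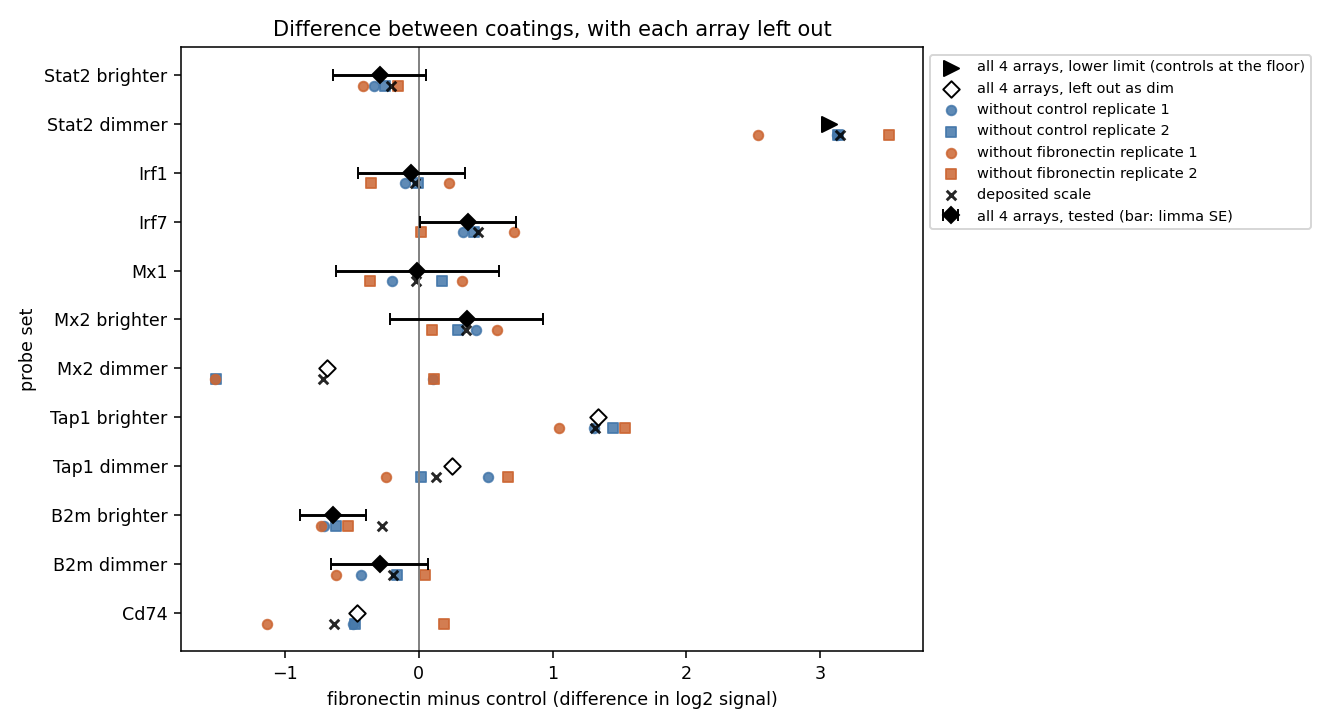
Difference in log2 signal, fibronectin minus control (horizontal axis), for each of the 12 probe sets (vertical axis). Filled diamonds are tested probe sets with limma's SE, the triangle the lower limit for the dimmer Stat2 probe set, open diamonds those left out as dim, circles and squares the value with 1 array left out, and crosses the deposited scale. The dimmer Stat2 and brighter Tap1 probe sets lie furthest above 0, Irf7 and the brighter Mx2 probe set are above 0 and the brighter B2m and Stat2 probe sets below 0 in each setting plotted, whereas Irf1, Mx1, the dimmer B2m, dimmer Mx2 and dimmer Tap1 probe sets and Cd74 lie on both sides.

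Other genes of the same pathways were taken from 5 lists by role, with 1 probe set for each gene, the brightest tested. Of 139 listed genes 56 were tested, and 0 passed limma's Benjamini-Hochberg threshold, as with the members. Over all 7101 tested genes 51.4% had a higher mean on fibronectin, with a median log2 difference of 0.02, and 5.68% had an unadjusted p under 0.05.

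Among receptors and kinases of interferon signalling, 8 of 13 listed genes were tested. The log2 difference was above 0 for 5 and below 0 for 3, with a median of 0.25, and 0 of 8 had an unadjusted p under 0.05. Ifngr1, a chain of the type II interferon receptor, had log2 signals of 8.79 and 8.69 on the controls and 9.04 and 9.55 on fibronectin, a log2 difference of 0.55 (SE 0.33). Usp18, which removes Isg15 from proteins and dampens type I signalling, had 8.18 and 7.78 against 8.46 and 8.67, a difference of 0.58 (SE 0.36). Both genes were higher on both fibronectin arrays, with limma adjusted p = 0.772 for each.

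Ifnar1, a chain of the type I receptor, had a log2 difference of 1.09 (SE 0.71) in its brightest tested probe set. Its log2 signals were 6.09 and 5.81 on the controls and 6.18 and 7.91 on fibronectin. Another Ifnar1 probe set, of nearly the same mean brightness, differed by -0.51 (SE 0.62). On the controls that other probe set was the brighter, at 6.50 and 6.90. Ifngr2, the other chain of the type II receptor, had a log2 difference of -0.42 (SE 0.46) with overlapping groups. Stat3, a STAT protein used by many cytokines, had -0.11 (SE 0.39). The receptor and kinase list depended on fibronectin replicate 2: without that array 4 of 9 genes were above 0, with a median of -0.10.

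Of 7 other interferon regulatory factors, 2 were tested. Irf9, the DNA-binding partner of Stat2, had log2 signals of 7.02 and 7.28 on the controls and 7.47 and 7.81 on fibronectin, higher on both fibronectin arrays by 0.49 (SE 0.42; limma adjusted p = 0.799). Irf3, which is activated by viral nucleic acid, had a log2 difference of -0.08 (SE 0.43) with overlapping groups.

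Interferon-induced effectors were divided. Of 57 listed genes 22 were tested, 12 with a higher and 10 with a lower mean on fibronectin, and the median log2 difference was 0.19. Both fibronectin arrays lay above both controls for 8 of the 22 and below both for 7, where 20.6% and 17.2% of all tested genes did. Eif2ak2, the kinase PKR that halts translation on double-stranded RNA, had log2 signals of 6.72 and 6.46 against 7.44 and 8.04, a difference of 1.15 (SE 0.46), the only one of the 22 with an unadjusted p under 0.05 (limma adjusted p = 0.754).

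Ifit1, Lgals3bp and Adar lay lower on both fibronectin arrays, none past limma's Benjamini-Hochberg threshold. Ifit1, which binds foreign RNA, had log2 signals of 7.14 and 7.63 against 6.85 and 6.32, a difference of -0.80 (SE 0.49). Lgals3bp, a secreted galectin-binding protein, differed by -0.63 (SE 0.34). Adar, an RNA-editing enzyme, differed by -0.60 (SE 0.35) in its brightest and -0.12 (SE 0.42) in another probe set. Ifi27, a mitochondrial interferon-induced protein and the brightest of the list, had 12.52 and 12.80 against 12.87 and 12.88, a difference of 0.21 (SE 0.24).

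In the list of class I molecules, peptide loading and immunoproteasome, 17 of 45 genes were tested, 9 with a higher and 8 with a lower mean and a median log2 difference of 0.22. Without fibronectin replicate 2 the median was 0.05. By the brightest tested probe set of each gene, an unadjusted p under 0.05 was found for 3 of the 17, 2 higher and 1 lower. Pdia3, a thiol oxidoreductase of the peptide-loading complex, had log2 signals of 10.81 and 10.68 on the controls and 10.11 and 8.85 on fibronectin, a difference of -1.26 (SE 0.42; limma adjusted p = 0.718). Its other tested probe set differed by -0.17 (SE 0.46). Canx, also of this list, differed by -0.47 (SE 0.58) in its brightest probe set, with overlapping groups. Its other tested probe sets differed by -3.37 (SE 0.86), with fibronectin replicate 1 at the floor, and by -1.04 (SE 0.28). Both lay lower on both fibronectin arrays, with unadjusted limma p of 0.00489 and 0.00695 and adjusted p of 0.596 and 0.636.

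Psmb10, a catalytic subunit of the immunoproteasome, had 6.72 and 7.23 against 7.77 and 8.64, a difference of 1.23 (SE 0.46; limma adjusted p = 0.737). RT1-T24-4, a class I heavy chain gene, had 8.17 and 8.12 against 8.76 and 9.14, a difference of 0.80 (SE 0.34; limma adjusted p = 0.762). Genes of this family are close copies of each other, and the probes may not tell them apart. Tapbp, or tapasin, which bridges the TAP transporter and class I molecules, differed by -0.85 (SE 0.40) and was lower on both fibronectin arrays. Calr, the chaperone calreticulin and the brightest of the list, differed by -0.47 (SE 0.26).

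Class II presentation gave small values. Of 17 listed genes 7 were tested, 4 with a higher and 3 with a lower mean, with a median log2 difference of 0.04 and 0 of 7 at an unadjusted p under 0.05. Without fibronectin replicate 2 the median was -0.07 over 8 genes. Rfx5, a promoter-binding factor for class II genes, differed by 0.41 (SE 0.37), and RT1-DMa, a chain of the peptide exchange molecule DM, by 0.41 (SE 0.60). RT1-DMb, the other DM chain, differed by -0.16 (SE 0.41), and the lysosomal protease gene Lgmn, the brightest of the list, by 0.17 (SE 0.32).

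The class II chains themselves were left out as dim, like Cd74. The 7 probe sets of RT1-Ba, RT1-Bb, RT1-Da and RT1-Db1 had log2 signals from 4.55 to 7.52 and 6 of 28 values at the floor. For 0 of the 7 were the groups free of overlap, where 37.8% of all tested genes did not overlap, a share that leaves out dim probe sets.

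Markers of leukocytes, chiefly macrophages, had lower summed signal on fibronectin among those bright enough to test. Of 25 markers 20 were on the array and 8 were tested, 6 with a lower and 2 with a higher mean on fibronectin. Summed over the 8, normalized signal on the linear scale ranged from 2179 to 2818 on the controls and from 1497 to 1896 on the fibronectin arrays. Lgals3 and Lyz2, the brightest of the 8, weighed most in these sums. Gene by gene, the groups overlapped for 5 of the 8. Both fibronectin arrays were lower for 3, against 17.2% of all tested genes. Cd53, a leukocyte tetraspanin, had log2 signals of 7.55 and 7.13 against 6.42 and 5.70, a difference of -1.28 (SE 0.55; limma adjusted p = 0.762). Aif1 differed by -1.80 (SE 0.86), with fibronectin replicate 2 at the floor, and Lgals3 by -0.66 (SE 0.32), both lower on both fibronectin arrays. Lyz2, macrophage lysozyme, differed by -0.54 (SE 0.40) with overlapping groups. The 12 markers left out as dim did not share that direction: 7 had a higher and 4 a lower mean on fibronectin, with a median of 0.30. Among the higher ones, the pan-leukocyte gene Ptprc differed by 0.47 in its brighter probe set, the myeloid gene Itgam by 0.53 and Cd14 by 0.44. In these only fibronectin replicate 2 lay above the controls. The T cell genes Cd3d and Cd3e differed by 1.36 and 0.47. The 4 lower ones were Cd4 at -1.14, Tyrobp at -0.88, Cybb at -0.78 and C1qc at -0.55. Of these 12 dim markers, 2 were higher and 2 lower without overlap, against 20.6% and 17.2% of all tested genes. The B cell gene Cd79b was at the floor on all 4 arrays.

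Fibroblast markers were lower in more of their members. All 14 were tested, 12 with a lower and 2 with a higher mean on fibronectin, and the median was -0.71. The groups did not overlap, with fibronectin lower, for 7 of them, against 17.2% of all tested genes. An unadjusted limma p under 0.05 was found for 5, against 5.68%, while 0 passed limma's Benjamini-Hochberg threshold. Their summed normalized signal on the linear scale was 50211 and 68641 on the controls and 38864 and 53643 on the fibronectin arrays, which overlapped. Of the 11 tested myocyte markers, 7 had a higher and 4 a lower mean on fibronectin, with a median of 0.11. Their summed signal was 77415 and 74504 on the controls and 86812 and 88970 on the fibronectin arrays. Gene by gene, the groups overlapped for 7 of the 11. Of 4 tested endothelial markers, 2 were higher and 2 lower, with a median of 0.03. The part of any of these cell types in the member values was not tested. In bulk RNA fewer cells of a type and less RNA per cell cannot be told apart.

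**Figure D3:**
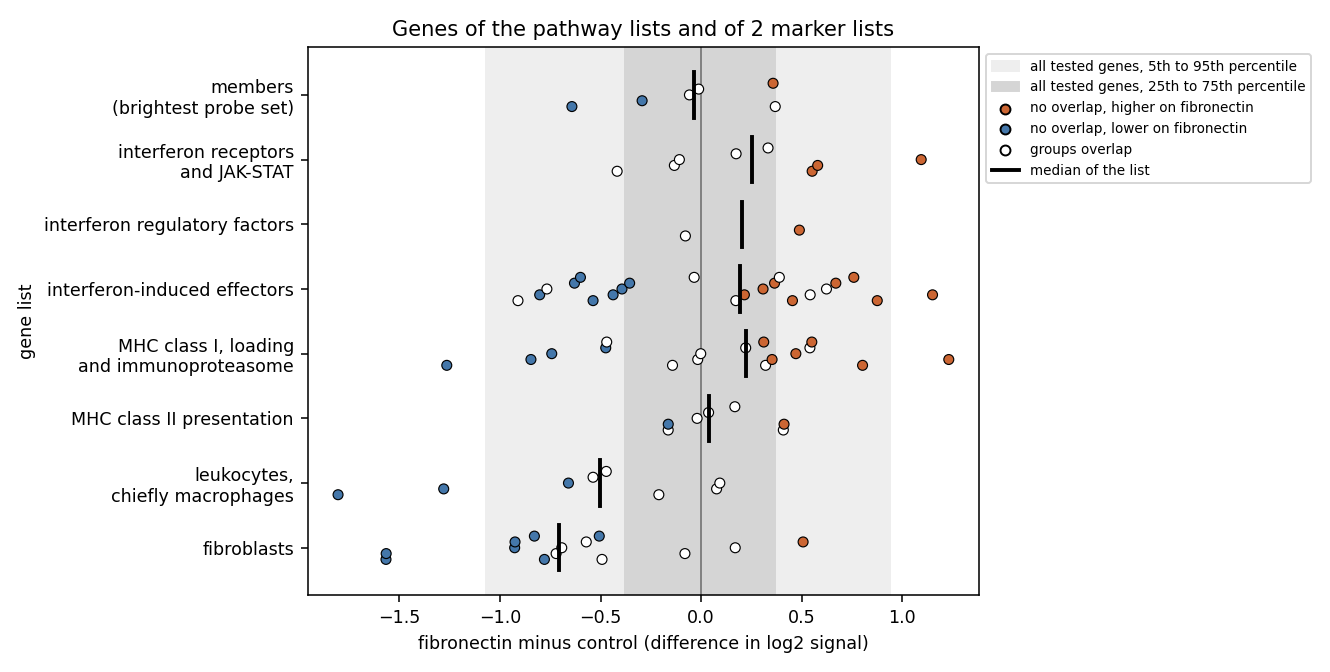
Difference in log2 signal, fibronectin minus control (horizontal axis), for the 6 tested members, the 5 pathway lists and the markers of leukocytes and fibroblasts (vertical axis). Each point is a gene by its brightest tested probe set, coloured where the groups did not overlap, the bar is the list's median, and the shading shows all 7101 tested genes. The pathway medians lie between 0.04 and 0.25, the members' at -0.04, the leukocyte markers' at -0.50 and the fibroblast markers' at -0.71.

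For each tested member the named probe set of another gene with the most similar pattern was found, as the smallest Euclidean distance between log2 signals centred on their own means over the 4 arrays. B2m was nearest to Ndufv2 at a distance of 0.06, Irf7 to Drg2 at 0.03 and Mx1 to Hm13 at 0.03. The brighter Stat2 probe set was nearest to Bcl9, Irf1 to Rfng and the brighter Mx2 probe set to Nr1d1, each at 0.02. None of these nearest genes was another member or a gene of the pathway lists. Over 4 arrays such nearness is a description only.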

How the data were processed

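The table deposited by the authors held 1 signal intensity on a linear scale for each probe set and array. Their software and scaling are not given in the sources used here. Trimmed means, without 2% of values at each end, ran from 176 to 248, so the arrays were quantile normalized. Values were raised to the 20th percentile and taken to log2. The 9 control probe sets and the dimmest 40% were left out, leaving 9519.

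The groups were tested in limma 3.58.1 (R 4.3.3) by lmFit followed by eBayes with trend, two-sided, with Benjamini-Hochberg adjustment and a threshold of 0.05. The script was tested on simulated data. With 2 arrays against 2 an exact permutation test cannot go below p = 0.333, and the number of arrays limits the precision. Gene names came from the platform annotation, and all 12 member probe sets matched GRCr8 symbols by Entrez identifier. Alternatives were other scalings, filters, floors, an offset, no trend, adjusted p 0.10, a replicate block, and each array left out. In each pathway list up to 4 genes with the smallest p and the brightest were named, and the 4 tested leukocyte genes with the smallest p. Canx and some leukocyte markers left out as dim were named besides, outside that rule. The members and lists were chosen with earlier results of these data known.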

Additional observations from a re-analysis of the deposited data

How the results depend on the processing

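Across the alternatives the number of member probe sets past limma's threshold was 0, with an exception under the replicate block. The labels do not say that equal numbers mark shared cultures, and deviations of equally numbered arrays correlated at 0.27, with only 2 numbers. The replicate block gave 234 probe sets past the threshold, 1 of them a member, the dimmer Stat2 probe set at 3.07 with limma adjusted p = 0.0344. That p is not used either. The floor sets the spread of its controls to 0, and it was bright enough for testing only through its fibronectin values. Leaving out each array gave from 0 (control replicate 2) to 459 (fibronectin replicate 1), with 6 when control replicate 1 and 17 when fibronectin replicate 2 was left out, and 0 members each time, in fits that take the lone array to vary like the other group. The dimmer Stat2 probe set was too dim to be tested with 60% left out, with the lower floor, or without either fibronectin array.

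Member genes without overlap, 3 of 6 (37.8% of all tested genes), numbered 1 on the deposited scale (32.5%). With an array left out they numbered from 3 of 6 to 6 of 6, where 61.2% to 79.9% of all tested genes did not overlap, since 1 array against 2 overlaps less often by construction. Without fibronectin replicate 2 it was 6 of 7. Without an array the difference ran from -0.36 to 0.22 for Irf1, from -0.36 to 0.32 for Mx1, from -0.62 to 0.049 for the dimmer B2m probe set and from -1.13 to 0.19 for Cd74. The brighter Tap1 probe set gave 1.73 with the floor at the 10th percentile, 0.51 at the 30th and 0.70 with an offset of 50. Counts for the pathway lists on other settings were added after seeing the data, and both tested regulatory factors, 2 in place of 1, were higher on the deposited scale and without fibronectin replicate 2. The causes were not tested.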
